A study of Mus musculus with 2 samples.

Results

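Portal and arterial vascular endothelial cells of mouse liver were taken from 1 single-cell library by a gate on molecule counts and made up 122 of the 6765 cells of that library with at most 20% mitochondrial molecules (1.80%, exact 95% binomial interval 1.5 to 2.15). A cell entered the gate if its UMIs (unique molecular identifiers, which count captured mRNA molecules) of Gja5, Nrg1, Sema3g, Ly6c1, Tcf15 and Nkx2-3 summed to at least 3. It also had to carry at least 2 UMIs of the endothelial genes Kdr, Ptprb and Pecam1 together, at most 1 of Rspo3, at most 5 of Dcn, none of Cd3d, Cd3e or Cd3g, and less than 0.4% of its UMIs from 7 macrophage genes. The gate genes were chosen from these same data, so their levels are given as a description and support nothing. The livers came from 8-week-old WT mice of strain C57BL/6, were dissociated with enzymes and cleaned on a Percoll density gradient, and the cells were read with droplet-based 3' chemistry. No group was treated and no transgene is named in the labels. Both libraries of the study belong to this 1 group, and the labels do not say from how many animals each was made.

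Blood reaches the liver lobule through the portal vein and the hepatic artery, flows along the sinusoids and leaves by the central vein. The large vessels are lined by continuous endothelium with a basement membrane, while the sinusoids are lined by a fenestrated endothelium that takes up waste macromolecules through scavenger receptors such as Stab2. Arterial endothelium is known for Notch signalling, for the gap junction protein connexin 40 (Gja5) and for elastic fibre genes, and endothelium around the central vein is known as a source of Wnt ligands and of Rspo3, which amplifies Wnt signals.

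The library labelled WT replicate 1 held 7362 cells and 40645060 UMIs, and that labelled WT replicate 2 held 2341 cells and 11867207 UMIs in the same table of 22508 genes and 9703 cells. Of replicate 1, 597 cells exceeded 20% mitochondrial UMIs and were left out. In replicate 2 the highest sum of the 6 gate genes in a cell was 1 UMI, so 0 of 2341 cells entered the gate, which allows a share of up to 0.128% (3 cells of the total), and 0 cells there met the conditions of the other endothelial cells. All values below therefore come from 1 library. There are no replicates, no test was made, and every interval covers counting error only. 5 barcodes occurred in both libraries, and 0 of them were gated cells.

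The 122 gated cells carried 1164032 UMIs, with a median of 7301 per cell (1241 to 37787) and a median of 2791.5 genes. They were compared with 3 other sets of cells. The nearest were the 2733 other endothelial cells, which met every condition of the gate except that the 6 genes summed to less than 3 UMIs (median 4847 UMIs). The 190 Rspo3 cells met the same endothelial conditions with at least 3 UMIs of Rspo3 (median 5994). All 6643 remaining cells together had a median of 4679 UMIs. The 2620 cells that reached 0.4% of macrophage genes (median 4078 UMIs) are given as a rough guide to free RNA. Of these cells 36.5% had a UMI of Pecam1, 16.5% of Ptprb and 10.2% of Kdr. How much of this was free RNA and how much their own was not tested.

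158 cells reached 3 UMIs of the 6 gate genes. Dcn, a fibroblast and stellate cell gene, kept out 26 of them, too few endothelial UMIs 25, macrophage genes 4, Cd3 genes 1 and Rspo3 1, and a cell could fail several conditions. Among the 122 members the sum ran from 3 to 69 UMIs with a median of 11, and 69 cells had 10 or more. 2676 of the other endothelial cells had a sum of 0. 13 members lay at 3 UMIs, just inside the threshold, and 14 cells at 2, just outside it. Vwf stood at 426 CPM (UMIs per 1000000 over the summed cells) in the 13 cells inside and at 559 in the 14 outside, and Fbln2 at 492 and 513. Npr3 was higher inside, at 131 against 11.4 CPM, and Mgp lower, at 459 against 901. The 2676 cells with a sum of 0 had 6.71 CPM of Vwf and 3.86 of Fbln2.

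**Figure D1:**
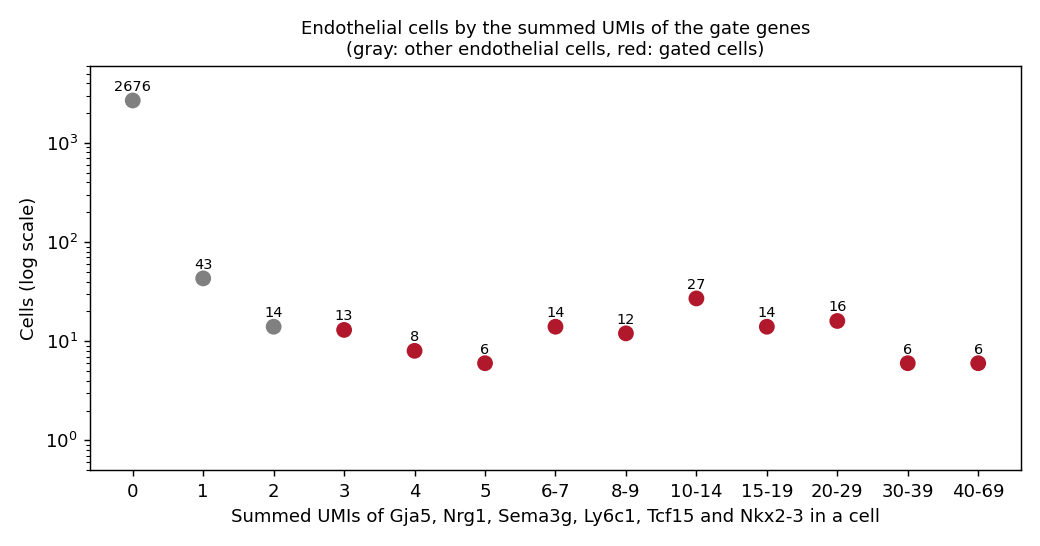
Number of endothelial cells (y axis, log scale) by the summed UMIs of the 6 gate genes in a cell (x axis, binned above 5), with cells outside the gate in gray and gated cells in red. 2676 cells stood at 0, 43 at 1 and 14 at 2 UMIs, and the 122 gated cells spread from 3 to 69.

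Each gate gene was found in some members and not in others. Ly6c1, a surface protein of the Ly6 family, had a UMI in 93 of 122 cells and Nrg1, the growth factor neuregulin, in 82. Gja5 had one in 73, Tcf15, a transcription factor of capillary and muscle endothelium, in 63, Sema3g, a secreted semaphorin, in 42 and Nkx2-3, a homeobox factor, in 23. The share of macrophage-gene cells with a UMI was at most 0.573% for any of the 6. 10 cells carried all 6 genes and 8 cells only 1. Of the 42 Sema3g cells 41 also had Ly6c1, as had all 23 Nkx2-3 cells, beside 93 of all 122 members. Gja5 was found in 21 of the 23 Nkx2-3 cells, beside 73 of all 122. Nrg1 was found in 57 of the 73 Gja5 cells, 41 of the 63 Tcf15 cells and 21 of the 42 Sema3g cells. Only 1 of the 122 cells had neither Nrg1 nor Ly6c1. The gate on the summed UMIs ties these genes together, and the cells were not brought to equal depth here. These counts are therefore a description only. The gate was also remade without 1 gene at a time. All 6 were chosen from these same data, so this describes how they occur together and supports nothing. The left-out gene was higher in the cells chosen by the remaining 5 than in the other endothelial cells. The ratio was 32.9-fold for Nrg1 (27.0 to 40.1), 50.2-fold for Ly6c1 (41.7 to 60.8), 91.3-fold for Tcf15 (57.6 to 152), 140-fold for Gja5 (90.5 to 228) and 145-fold for Sema3g (75.8 to 310). Leaving out Nkx2-3 changed no member, and its ratio of 843 (229 to 7031) rested on 2 UMIs in the other endothelial cells.

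Ly6c1 has a near-identical neighbour in the genome, Ly6c2, which monocytes carry. Of the 271 words of 30 bases in the last 300 bases of the longest Ly6c1 transcript, 124 (45.8%) also occur in Ly6c2 transcripts, and 7 (2.58%) in Ly6a. Counts of Ly6c1 are thus uncertain where the authors' counting could split or drop shared reads. Ly6c2 had 1 UMI in the gated cells beside 638 of Ly6c1, and Ly6c1 lies on chromosome 15 at 75044018 to 75048830 (GRCm38, minus strand).

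**Figure D2:**
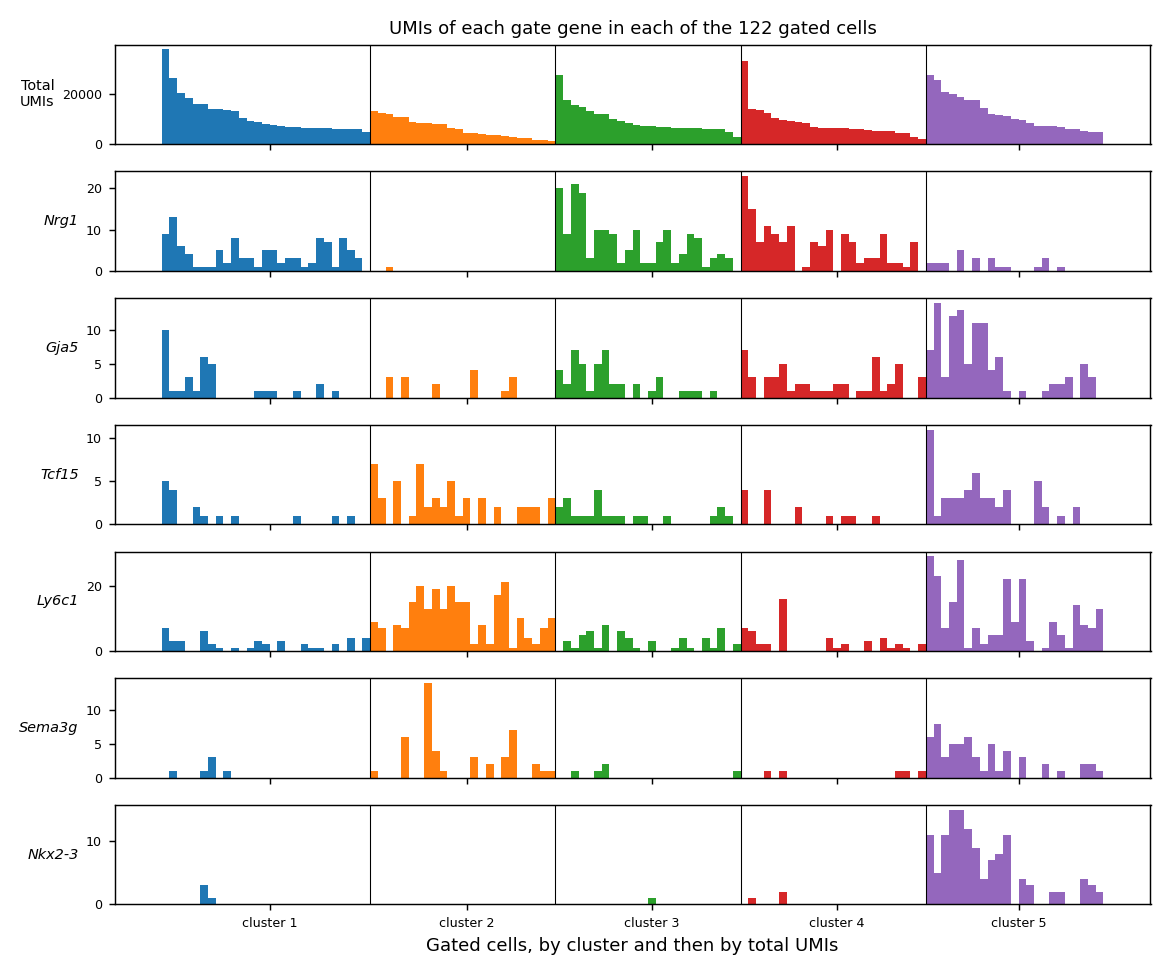
UMIs of each gate gene (y axes) in each of the 122 gated cells (x axis), ordered by the 5 clusters described further on and then by total UMIs, which the top panel gives. Nkx2-3 stood almost only in cluster 5 (18 of its 23 cells) and Nrg1 in 1 of the 24 cells of cluster 2, although every cluster had Ly6c1.

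The label was set beside markers of the vessels it names and of those it does not. The gate itself required UMIs of Kdr, Ptprb or Pecam1, so these are no check; Ptprb, a receptor phosphatase, had a UMI in all 122 cells and Pecam1 in 120. Of 26 genes on a list of arterial genes with at least 50 UMIs over both sides, 19 were at least 2-fold higher than in the other endothelial cells and 1, Cxcr4 with 1 UMI, was lower, with a median log2 fold of 3.35, where over all 11240 genes compared 701 were higher (6.24%) and 1603 lower (14.3%), with a median of -0.15. Of 26 sinusoidal genes 25 were lower and 0 higher (median log2 fold -2.58). Venous genes were mixed, with 8 higher and 4 lower of 21. By these counts the cells carried more of the arterial and less of the sinusoidal set than the other endothelial cells, although several defining arterial genes stood apart little. Of the 122 members, 52 had at most 2 UMIs of Stab2, Clec4g, Fcgr2b and Lyve1 together. The lists were chosen with earlier results of these data known, so the counts describe the cells and are no independent check of the label. The gate does not separate portal vein from hepatic artery, and the members were not of 1 kind, as the clusters described further on show.

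The arterial genes that stood highest against the other endothelial cells were matrix and signalling genes. Fbln2, an elastic fibre protein, was at 719 CPM in the gated cells and 8.52 in the other endothelial cells, 84.4-fold higher (69.7 to 103), with a UMI in 104 of 122 cells and up to 34 in a cell. It was found in 1.68% of other endothelial and 1.72% of macrophage-gene cells, and after each cell was thinned to 2000 UMIs the shares were 64.7%, 0.894% and 0.991%. Fbln5, which binds elastin, was 57.1-fold higher (43.0 to 77.1) and elastin itself, Eln, 28.9-fold (22.7 to 37.1). The endothelial kinase gene Bmx was 40.6-fold higher (23.6 to 73.2) and Vegfc, the ligand of the receptor Flt4, 19.2-fold (15.9 to 23.3). Mecom, a transcription factor of arterial endothelium, was 7.12-fold higher (6.17 to 8.21) and Sox17, another, 2.81-fold (2.44 to 3.23).

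Other genes that commonly mark arteries moved little or the other way. Efnb2, the ephrin of arterial endothelium, stood at 233 CPM in gated and 159 in other endothelial cells (1.46-fold, 1.28 to 1.66), and the Notch ligand Dll4 at 197 and 123 (1.60-fold, 1.39 to 1.84). Both were far lower in Rspo3 cells, at 29.5 CPM each. Gja4, connexin 37, was lower in gated than in other endothelial cells, 202 against 384 CPM, and lower again than in Rspo3 cells (553). Hey1, a Notch target, was 12.4-fold higher (7.75 to 19.8) but rested on 39 UMIs in 25 cells, and Hey2 had 0 UMIs.

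Venous genes fell into those shared with the Rspo3 cells and those not. Vwf, the platelet adhesion factor of large-vessel endothelium, was at 816 CPM in gated, 681 in Rspo3 and 14.2 in other endothelial cells, 57.4-fold above the last (49.3 to 67.1). It had a UMI in 100 of 122 gated cells, with a median of 4 and at most 47. Selp, the adhesion receptor P-selectin, was 26.1-fold above other endothelial cells (19.0 to 36.1) but lower than in the Rspo3 cells, 107 against 290 CPM. Adgrg6, an adhesion G protein-coupled receptor, behaved differently: 609 CPM in gated, 24.8 in other endothelial and 5.05 in Rspo3 cells. Nr2f2, the transcription factor of venous identity, was at 490 and 486 CPM in gated and other endothelial cells, a ratio of 1.01 (0.924 to 1.10).

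Genes of the sinusoid and of the central vein were low in the gated cells. Stab2 stood at 79.0 CPM against 928 in other endothelial cells, 11.7-fold lower (9.56 to 14.6), and had a UMI in 32 of 122 cells. In macrophage-gene cells 32.3% carried one, so the share in the gated cells was no higher than there. How much of either share was free RNA was not tested. Dnase1l3, a secreted nuclease, was 8.62-fold lower (7.88 to 9.45), Fcgr2b, an Fc receptor, 7.71-fold (6.95 to 8.58) and Clec4g, a lectin, 6.19-fold (5.66 to 6.78), yet Clec4g was found in 61.5% of gated cells beside 14.2% of macrophage-gene cells. Bmp2, a ligand that drives hepcidin in hepatocytes, was at 278 CPM against 2429. Kit, the stem cell factor receptor, had 7 UMIs in 7 cells, 6.01 CPM against 231 in other endothelial and 491 in Rspo3 cells. Of the Wnt ligands, Wnt2 was at 20.6 CPM against 285 and 756, and Wnt9b had 0 UMIs, which puts it at least 3.79-fold below the other endothelial and at least 132-fold below the Rspo3 cells (a value of 0 was set to 3 UMIs).

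**Figure D3:**
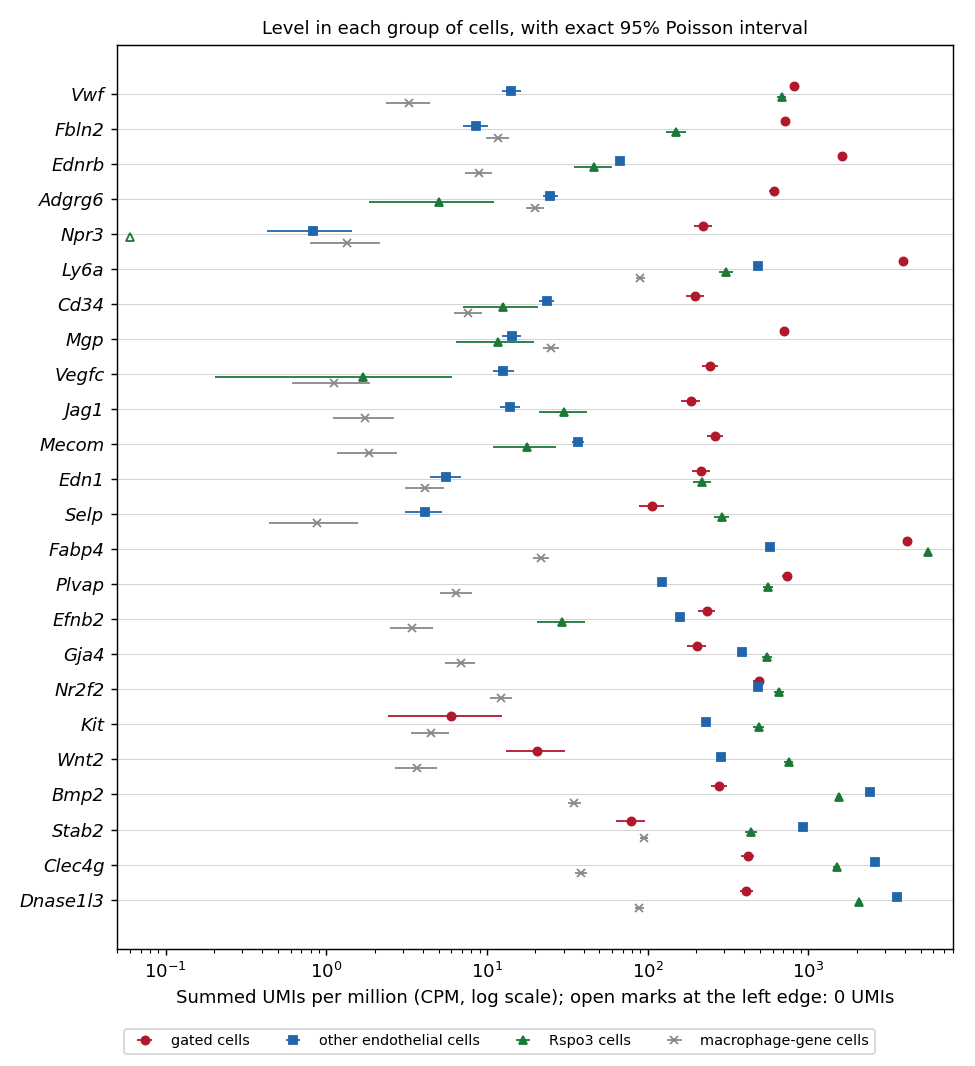
Summed CPM (x axis, log scale) of 24 genes in gated, other endothelial, Rspo3 and macrophage-gene cells, with exact 95% Poisson intervals for counting error, and open marks for 0 UMIs. Vwf was near 800 CPM in the gated cells and 681 in the Rspo3 cells, and Kit fell from 491 in Rspo3 cells to 6.01 in the gated cells.

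Some transcripts stood above every other group that was compared. Of 3710 genes with at least 50 UMIs in the gated cells, 82 were at least 2-fold higher than in each of 6 other groups, and 6 were at least 10-fold higher. The groups were other endothelial, Rspo3, macrophage-gene, Dcn, Cd3 and low-endothelial cells. They did not cover the whole library. Endothelial cells with more than 1 but fewer than 3 UMIs of Rspo3 entered no group. Those that reached the gate sum with more than 1 UMI of Rspo3 also entered none. Genes entered by their UMIs in the gated cells alone, and no like count is given for the other groups, so these counts are a description. The 6 genes were Syt15, Ednrb, Npr3, Adgrg6, Stc1 and Tmem252. Ednrb, the endothelin B receptor, had the most UMIs of them: 1882 in 99 of 122 cells, with a median of 12 and a maximum of 71 per cell. It was at 1617 CPM beside 67.4 in other endothelial cells, the next highest group, a 24-fold difference (22.2 to 26.0). After thinning it was found in 71.4% of gated and 4.55% of other endothelial cells, and in 0.991% of macrophage-gene cells. Npr3, the clearance receptor of natriuretic peptides, had 258 UMIs in 61 cells and stood 267-fold (150 to 523) above other endothelial cells and 19.3-fold above the Dcn cells, the next highest. Syt15, a synaptotagmin, had 88 UMIs in the gated cells against 4 in the other endothelial cells.

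Ednrb lies on chromosome 14 at 103814625 to 103844402 (minus strand) and Gja5 on chromosome 3 at 96904693 to 97077416 (plus strand, GRCm38). The 250 bases before the RefSeq start of each are shown because Ednrb set these cells apart by level and Gja5 entered the gate. Capitals mark matches, on either strand, to the letters CCGGAA (a core of ETS factor sites), TGGGAA (of the Notch effector RBPJ), ACAAT (of SOX factors) or CACCC (of KLF factors). Over all 27025 promoter windows of the RefSeq table (GRCm38.p6), 51.3% held CACCC, 28.4% ACAAT, 21.5% TGGGAA and 12.2% CCGGAA. Both windows held only CACCC or its reverse complement, which was 2 matches before Ednrb and 4 before Gja5. The first window is chr14:103843702-103843951 on the minus strand and the second chr3:97032152-97032401 on the plus strand. Both lie inside the gene spans given above, so neither is upstream of the whole annotated gene.
Ednrb: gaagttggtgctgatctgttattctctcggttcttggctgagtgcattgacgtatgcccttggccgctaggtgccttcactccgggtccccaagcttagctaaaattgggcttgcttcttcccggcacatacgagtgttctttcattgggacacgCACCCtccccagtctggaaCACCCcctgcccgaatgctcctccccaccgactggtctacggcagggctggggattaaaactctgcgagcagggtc
Gja5: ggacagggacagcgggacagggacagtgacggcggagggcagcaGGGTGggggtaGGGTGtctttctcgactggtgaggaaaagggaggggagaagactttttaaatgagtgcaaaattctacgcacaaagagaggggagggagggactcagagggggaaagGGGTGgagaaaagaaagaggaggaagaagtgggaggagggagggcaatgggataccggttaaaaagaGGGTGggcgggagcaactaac
The letters describe these windows only. Nothing was measured at them, and a match is not a bound site.

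In the list on vascular tone 11 of 30 genes were higher than in other endothelial cells and 6 lower. Over all 11240 genes compared 6.24% were higher and 14.3% lower. These shares also stand beside the list counts against other endothelial cells in the paragraphs that follow. Edn1, which encodes the vasoconstrictor endothelin, was at 216 CPM in gated and 5.54 in other endothelial cells (38.9-fold, 30.1 to 50.7), and at 218 CPM in the Rspo3 cells. Its receptor gene Ednrb was high in the gated cells and stood at 46.3 CPM in the Rspo3 cells. Ece1, which processes the precursor, was at 649 CPM against 442 and 749. Ace, the angiotensin converting enzyme, was 45.5-fold above other endothelial cells (34.2 to 61.4) with a UMI in 76 cells, and Sdc1, a heparan sulphate proteoglycan, 44.5-fold (37.0 to 53.7). The flow-responsive factors Klf2 and Klf4 were 1.51-fold (1.45 to 1.57) and 2.09-fold (1.98 to 2.21) higher. Nos3, endothelial nitric oxide synthase, was at 101 against 68.1 CPM (1.49-fold). Ptgs1, which makes prostanoid precursors, was lower, at 115 against 275 CPM and 762 in the Rspo3 cells.

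In the list of matrix and basement membrane genes 15 of 38 were higher and 7 lower. Mgp, an inhibitor of calcification, was 49.8-fold higher (42.7 to 58.3) in sum but stood in 48 of 122 cells only and reached 152 UMIs in a single cell. Col8a1, a short-chain collagen, was at 143 CPM against 0.554 (259-fold, 128 to 609). Sparcl1 was 73.8-fold higher (45.7 to 125). Of the basement membrane genes Col4a1 was at 356 CPM against 495 (0.719-fold), Nid1 at 232 against 269, and Hspg2, which encodes perlecan, at 196 against 544. The sinusoidal collagen gene Col13a1 was 8.34-fold lower (5.96 to 12.1). Fbln2, Fbln5, Eln and Mgp are also high in Dcn cells (518, 263, 215 and 1740 CPM), while the collagen genes of fibroblasts were near 0 in the gated cells: Col1a1 had 2 UMIs and Col3a1 9.

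In clotting and fibrinolysis 4 of 21 genes were higher and 7 lower. Besides Vwf these included Plat, tissue plasminogen activator, 76.4-fold higher than in other endothelial cells (55.2 to 108), and Procr, the protein C receptor, 8.40-fold (6.48 to 10.9). Entpd1, which degrades ADP on the cell surface, was 17.3-fold higher but stood at 85.0 CPM, below the 217 CPM of the Rspo3 cells. F8, coagulation factor VIII, was among the lower ones (362 against 861 CPM), as were Tfpi, the inhibitor of tissue factor (95.4 against 315), Pros1 (177 against 406) and the complement regulator Cd55 (234 against 977).

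Of 29 junction and surface genes 16 lay within 2-fold of the other endothelial cells, 8 were higher and 5 lower. Cdh5, VE-cadherin, was at 859 CPM in both gated and other endothelial cells (1.0-fold, 0.937 to 1.07) and 868 in Rspo3 cells, and the tight junction gene Cldn5 was at 670, 557 and 190. The higher ones were led by Cd200, an inhibitory ligand for myeloid cells (54.6-fold, 41.7 to 72.3), the sialomucin gene Cd34 (8.40-fold, 7.08 to 9.95) and Ly6a, which encodes Sca-1. Ly6a stood at 3861 CPM in the gated cells, 484 in other endothelial and 307 in Rspo3 cells, with a UMI in all 122 cells and, after thinning, in 100% of the 119 cells that were deep enough. In other endothelial cells 56.5% carried it, and 21.9% of macrophage-gene cells. Gja1, connexin 43, was 3.81-fold lower (3.23 to 4.52), like Gja4 and unlike Gja5.

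The lists of Notch, Wnt, VEGF and BMP signalling each held genes on both sides. Over all 11240 genes compared with the other endothelial cells 6.24% were higher and 14.3% lower. In the Notch list 5 of 19 genes were higher and 2 lower. Among the ligands compared Jag1 had the largest fold, at 186 CPM against 14.0 (13.3-fold, 10.9 to 16.2). Its 217 UMIs in the gated cells were fewer than the 229 of Dll4. The receptor Notch1 was at 517 against 435 and the target Hes1 at 735 against 602. Nrarp, a feedback target, was 3.46-fold higher (2.90 to 4.10). In the VEGF and angiopoietin list 6 of 25 were higher and 9 lower. The receptor genes parted: Flt1 was level (962 against 945 CPM), Kdr, a gate gene, stood at 401 against 2733, and Flt4, Nrp1 and Nrp2 were lower by 4.62-fold, 3.55-fold and 2.68-fold. Of 23 genes of TGF-beta and BMP signalling 6 were higher and 4 lower, among them the receptor Acvrl1 (3.45-fold higher, 2.81 to 4.2), the target Id1 (4.0-fold, 3.70 to 4.32) and the coreceptor Eng (0.464-fold, 0.433 to 0.497). In the Wnt list 2 of 17 were higher and 5 lower, and Sfrp1, a secreted Wnt inhibitor, was 195-fold higher (96.1 to 462) on 126 UMIs in 22 cells. In the guidance list 1 of 23 was higher, the ephrin gene Efnb1 (2.82-fold, 2.62 to 3.04), and 7 were lower. In the 52 gated cells with at most 2 UMIs of sinusoidal genes Efnb1 turned the other way, to 0.864-fold.

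Of 22 genes of capillaries and lipid uptake 9 were higher and 3 lower. Fabp4 was at 4140 CPM in the gated cells, 581 in other endothelial and 5530 in Rspo3 cells, and Plvap, a component of endothelial diaphragms, was 5.92-fold above other endothelial cells. Of 34 chemokine, cytokine and adhesion genes 9 were higher and 8 lower. Il33, an alarmin held in nuclei, was 9.56-fold higher, and the chemokine gene Cxcl12 7.67-fold (6.04 to 9.72). Of 47 transcription factors 11 were higher and 7 lower. Ebf1 was 13.5-fold higher, and Maf, a factor of sinusoidal endothelium, stood at 543 CPM against 3145.

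**Figure D4:**
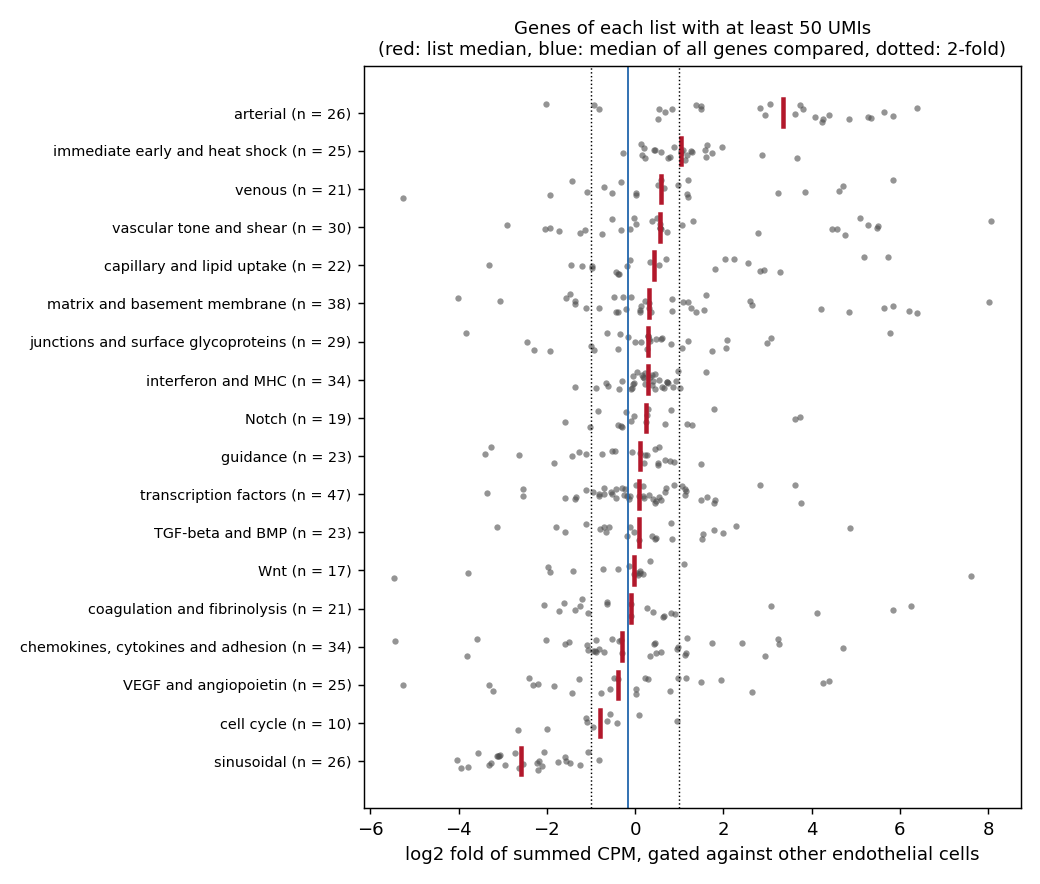
log2 fold of summed CPM between gated and other endothelial cells (x axis) for each gene of 18 lists with at least 50 UMIs over both sides, 1 point a gene, with the list median in red and the median of all genes compared in blue. The arterial list lies furthest right (median 3.35) and the sinusoidal list furthest left (-2.58), and the other medians lie between -0.80 and 1.04.

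A further pair of lists concerns the state of the cells. Immediate early and heat shock genes, which cell isolation can induce, were higher for 14 of 25 genes and lower for 0, with a median log2 fold of 1.04. Fos was at 4362 against 1999 CPM (2.18-fold), Atf3 at 1154 against 342 (3.37-fold) and the small heat shock gene Hspb1 at 1359 against 106 (12.8-fold, 11.9 to 13.7). Against all other cells 3 of 25 were higher and 0 lower, where 1056 of 14433 genes were higher (7.32%) and 2924 lower (20.3%). Mitochondrial shares were alike, with medians of 3.25% in gated and 3.69% in other endothelial cells. Whether cell isolation takes part in the differences between the groups was not tested. Against the other endothelial cells 6.24% of all genes compared were higher and 14.3% lower. There, of 34 interferon and antigen presentation genes 31 lay within 2-fold, 2 were higher and 1 lower. Of 10 cell cycle genes 0 were higher and 4 lower, with Mki67 at 0 UMIs.

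Against the Rspo3 cells, on the central vein side, 386 of 6360 genes were at least 2-fold higher in the gated cells (6.07%) and 435 lower (6.84%). Both groups were poor in Stab2 beside the other endothelial cells, but the Rspo3 cells kept 441 CPM of it. The genes higher in the gated cells were led by Emp1 (322 against 1.68 CPM) and Vegfc (244 against 1.68), each with 2 UMIs in the Rspo3 cells, and the ratios were 191 (52.6 to 1586) and 145 (39.8 to 1203). Mal had 0 UMIs in the Rspo3 cells and was at least 116-fold higher, and Npr3, also at 0, at least 87.8-fold higher. On the other side Wnt9b, Plppr5, Kit, Col6a3, Dkk3, Sema3d and Cyp1b1 were higher in the Rspo3 cells, and Lhx6, a transcription factor there, stood at 208 against 6.87 CPM. Of 22 arterial genes 19 were higher in the gated cells and 1 lower, and of 21 venous genes 3 were higher and 9 lower. These 2 comparisons share the gated cells, so their counts are not independent of each other.

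Markers of cells that could be mixed in were summed in the gated cells. Hepatocyte genes, all 12 of which had UMIs, summed to 977 CPM in gated and 3280 in other endothelial cells. Of 8 lymphatic genes Mmrn1, Pdpn, Ccl21a and Pard6g were at 0, and the sum was 292 CPM against 1686. Single cells among the other endothelial cells had up to 6.35% of their UMIs from these genes, and no gated cell more than 0.141%. The lymphatic list also held Lyve1, counted above among sinusoidal genes, and Flt4, with 232 UMIs in the gated cells. Its sum is therefore no measure of lymphatic cells alone. Of 8 mesothelial genes 6 were at 0, and of 9 T and NK cell genes 8. Stellate genes summed to 444 against 270 CPM. Portal fibroblast genes summed to 55.8 against 18.2 CPM, and both of the genes with enough UMIs to compare, Gsn and Col3a1, were higher in the gated cells, while Mfap4, Lum and Fbln1 were at 0. Cholangiocyte genes summed to 85.9 against 370 CPM, and B and plasmacytoid cell genes to 752 against 848. Smooth muscle genes summed to 198 CPM against 40.9, and 57 of the 77 Tagln UMIs and 28 of the 43 Acta2 UMIs lay in 1 cell. Monocyte and dendritic genes summed to 486 against 135 CPM, with Plac8 9.64-fold higher (8.55 to 10.9) and found in 93 of 122 cells, while S100a8, S100a9, Chil3, Flt3 and Cd209a were at 0. The part of such cells in the results was not tested. Doublets were not called.

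The members varied among themselves. Clustering of the 122 cells alone gave 5 clusters of 27, 24, 24, 24 and 23 cells, described here by their genes without a test, because the same genes made the clusters. At a lower resolution 3 clusters remained, of which 1 joined clusters 1 and 3, 1 joined cluster 5 with 22 cells of cluster 2, and 1 held cluster 4 with the other 2.

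Clusters 1, 3 and 4 shared Nrg1, found in 26 of 27, 23 of 24 and 21 of 24 cells, and Ednrb, at 2135, 2347 and 2054 CPM beside 343 in cluster 2 and 817 in 20 of the 23 cells of cluster 5. They also shared Efnb1, at 1076 to 1306 CPM, and the capillary gene Gpihbp1, which anchors lipoprotein lipase, at 1779 to 2336 CPM, which cluster 2 carried as well, at 1340 CPM in 19 of its 24 cells. Cluster 1 held the most of the sinusoidal genes, with 888 CPM of Clec4g, 1053 of Dnase1l3 and 207 of Stab2, and the least of Mgp (25.9 CPM). Its leading genes included Vipr1, Clec1b and Mt1. The leading genes of cluster 3 included the hepatocyte genes Fga, Bhmt, Serpinc1 and Apoc3, and 4 hepatocyte markers summed to 787 CPM there beside 314 to 693 in the other clusters. Cluster 4 differed in its low immediate early genes: Fos was at 186 CPM beside 2329 to 6549 in the other 4 clusters, Egr1 at 161 beside 1804 to 2971, and Atf3 at 35.2 beside 969 to 1648. None of the 3 was given a name.

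Cluster 2 had the highest summed level of the capillary and of the arterial markers. All 8 capillary marker genes were found in at least 10% of its 24 cells, and they summed to 21395 CPM beside 4496 to 6716 in the other clusters. Most of that sum was Fabp4: without it, a sum added after the data were seen, cluster 2 stood at 4854 CPM, cluster 4 at 4526 and the others at 1994 to 3762. Fabp4, a fatty acid carrier, was at 16541 CPM in cluster 2 and 2190 to 2501 in the others, and the caveolin gene Cav1 at 1151 beside 35.2 to 389. Rgcc and Sparcl1 were almost confined to it in these 122 cells, with 118 of 128 and 115 of 119 UMIs, and Cxcl12 and Jag2 were at 633 and 148 CPM. Nrg1 stood in 1 of its 24 cells and Ednrb in 7, but Ly6c1 in 23. The 11 arterial markers summed to 2424 CPM, beside 1419 to 1937 in the other clusters, with Sox17 at 505 CPM. They did not move together: Hey1, at 80.8 CPM, was highest of the clusters here, and Gja5, at 108, and Bmx, at 13.5, were lowest. Fbln2, not among the 11, was at 687 CPM, beside 489 to 881 in the other clusters. Its cells had the lowest median depth (5212.5 UMIs), and it was left unnamed. The Igfbp3 level of 646 CPM rested on 1 cell with 74 of the 103 UMIs of all members, and the cell with most Tagln lay here as well.

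Cluster 5 was led by Cpe, a peptide processing enzyme, Nkx2-3, Fxyd6, Sfrp1 and Gucy1a1, a subunit of the nitric oxide receptor. It held 18 of the 23 Nkx2-3 cells, 17 of the 42 Sema3g cells and 18 of the 73 Gja5 cells, and its median depth was the highest, 10148 UMIs. Vwf was at 1634 CPM, beside 316 to 800 in the other clusters, Plat at 717 beside 60.3 to 79.1, Selp at 325 beside 29.2 to 74.1 and Cd200 at 742 beside 55.1 to 195. Eln, at 450 CPM, and Mgp, at 1763, were high as well, and Hspb1 reached 3272. Of the sinusoidal genes Stab2 was at 0 UMIs and Clec4g at 10.7 CPM, and Gpihbp1 was at 74.9. Efnb1 was at 53.5 CPM, the lowest of the clusters. Arterial (Gja5, Sema3g, Eln) and venous markers (Vwf, Selp) thus stood in the same cluster, which was left unnamed. Gja5 and Sema3g are gate genes. Other arterial markers parted: Bmx (125 CPM) and Fbln5 (567) were highest of the clusters here, and Gja4 (74.9) and Dll4 (125) lowest.

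**Figure D5:**
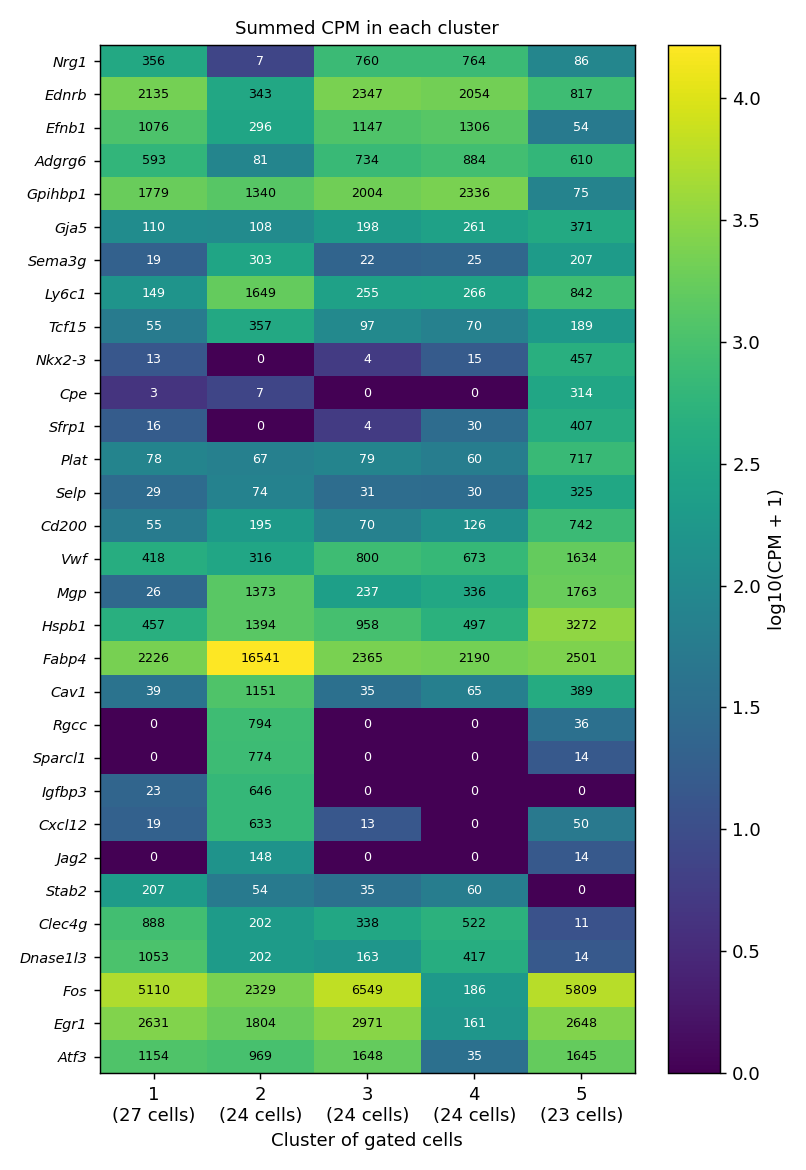
Summed CPM, printed in each field and coloured on the log10(CPM + 1) scale, of 31 genes (rows) in the 5 clusters of gated cells (columns). Clusters 1, 3 and 4 share Nrg1, Ednrb and Efnb1, cluster 2 has the highest Fabp4 (16541 CPM) and cluster 5 the highest Vwf (1634 CPM), and cluster 4 the lowest Fos (186 CPM).

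Genes outside the vascular lists were found among the strongest differences as well. Cyp1a1, a target of the aryl hydrocarbon receptor, was at 699 CPM in the gated cells against 8.66 in other endothelial cells (80.7-fold, 66.8 to 98.3), with a UMI in 80 of 122 cells and in 38.9% of Rspo3 cells. Retnla, a secreted resistin-like protein, was 134-fold higher in sum (70.1 to 287), but all 108 of its UMIs lay in 1 gated cell. Emp1, a membrane protein, was 40.8-fold higher (33.0 to 50.7). On the lower side Hbb-bs, Ccl21a, Dmbt1 (1.81-fold higher without the deepest 5% of cells), Rerg, Vstm4, Tiam1, Mmd and Ppfia2 joined Kit and Dkk3. Hbb-bs, a haemoglobin gene, and Ccl21a, a lymphatic chemokine, had 0 UMIs in the gated cells and were at least 47.2-fold and at least 43.4-fold lower, although only 1.28% and 1.17% of the other endothelial cells carried them.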

How the data were processed

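The deposited table held raw UMI counts per gene and cell for both libraries, made by the authors with Cell Ranger 2.1.1 and Seurat 3.1 against GRCm38, per the submitters' processing notes, which give no role or order for the tools. Barcode endings 1 and 2 were read as WT replicates 1 and 2. There were 0 columns of no sample. The members, gene lists and comparisons were chosen with earlier results of these data known. The gate was applied to each cell of replicate 1. UMIs were summed over the cells of a group and given per 1000000 (CPM), with exact 95% Poisson intervals for levels, conditional binomial intervals for folds and Clopper-Pearson intervals for shares. A gene counted as higher or lower at 2-fold with at least 50 UMIs over both sides. A side at 0 was set to 3 UMIs over the group, which gives a bound. For shares at equal depth each cell was thinned to 2000 UMIs, which left 119 gated, 2350 other endothelial and 2019 macrophage-gene cells. Gated cells were clustered by the Leiden method at resolution 0.8 on 20 components of up to 2000 variable genes. Free RNA was not subtracted. Doublets were not called, and an alternative left out the deepest 5% of cells. Remaking the gate without single genes was added after the data were seen, except for Nkx2-3.

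Genes were named by size of fold: per comparison the 15 highest and 10 lowest, leaving out gate, mitochondrial, ribosomal protein and model genes, up to 6 per list, and 10 leading genes per cluster found in at least 25% of its cells. Further list members named in the text were chosen after their values were seen. Gene positions are from the GRCm38 annotation. Of the 22508 symbols 13472 had a RefSeq promoter entry (59.9%). Scripts used numpy 2.4.6, pandas 2.3.3, scipy 1.17.1, scanpy 1.11.5, leidenalg 0.10.2 and matplotlib 3.10.9, and were tested on simulated data.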

Additional observations from a re-analysis of the deposited data

How the results depend on the processing

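No paired analysis was possible because all cells compared came from 1 library of 1 group. A sum of at least 5 UMIs of the gate genes left 101 members, and resolution 0.4 gave 3 clusters. With at least 200 UMIs per gene the genes higher and lower than in other endothelial cells numbered 324 and 858, those against the Rspo3 cells 144 and 159, and 656 were higher than in all other cells. With no minimum 2079 were higher than in other endothelial cells, 1417 higher and 1389 lower than in Rspo3 cells, and 2131 higher than in all other cells. Fewer or more genes enter under these minimums by construction. Thinning to 2000 UMIs gave 138 higher and 188 lower against the Rspo3 cells and 1907 lower than in all other cells, and of the 498 genes then higher than in other endothelial cells 284 were among the 701. The 52 gated cells with at most 2 sinusoidal UMIs gave 730 genes lower than in Rspo3 cells. The causes were not tested.

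Over 10 settings 1371 folds of single genes against other endothelial cells stayed within their counting interval, 252 moved out of it, 10 changed direction and 26 gave no value, since a side at 0 UMIs gives only a bound. The settings that change only the minimum of UMIs cannot change a fold. Leaving Nkx2-3 out of the sum kept the same 122 members, so it cannot either. The number of folds that stayed is thus partly set by construction. Without the deepest 5% of cells Dmbt1 was at 1.81-fold against other endothelial cells, Epcam at 1.06, Krt18 at 1.68, Krt19 at 2.11, Krt8 at 1.0, Sox9 at 4.23 and Wnt4 at 1.01. Efnb1 was at 0.864-fold with at most 2 sinusoidal UMIs. Tspan8 was at 1.14-fold by the mean CPM over cells and at 1.98 after thinning. With 1 library the intervals cover counting error only, and low genes such as Hey1 and Jag2 rest on few UMIs.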
